A study of Homo sapiens with 4 samples.

Results

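The TNF ligand and receptor superfamilies were examined in U87TR-Da, a U87MG-derived human glioblastoma line whose DACH1 gene, coding for a nuclear repressor of transcription, can be switched on by doxycycline. Members were taken by symbol: genes starting with TNFSF or TNFRSF, together with TNF, LTA, LTB, LTBR, CD40, CD70 and CD27, each read from the brightest of its probe sets that name 1 gene. This gave 38 of the 19775 genes on the array, namely 14 ligands, 22 receptors and 2 noncoding RNAs that carry a receptor's symbol. The family was chosen with these signals known, and its probe sets were chosen by their signal over the 4 arrays, so member values are given as a description with no test. Total RNA was hybridised to 4 oligonucleotide arrays, 1 per condition: DACH1-induced and DACH1-silenced cells in medium labelled serum-free (Neurobasal supplemented with EGF, basic FGF, B-27 and N-2), and induced and silenced cells in medium labelled serum (DMEM with 10% fetal bovine serum). All 4 samples carry the same treatment line of 1 µg/mL doxycycline for 72 h, the silenced ones included, and the labels do not say whether the line is a single clone. No condition was repeated, so no difference between members has a replicate check.

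Ligands of this superfamily are membrane proteins that act as trimers on the cell surface or after shedding, and their receptors bind them through cysteine-rich repeats. Receptors with a death domain can recruit TRADD or FADD and lead to caspases, while most of the others bind TRAF adaptors and signal to NF-kB and stress kinases. Decoy receptors bind ligand without a working death domain. Much of the family is known from lymphocytes, but glioma cells are known to carry some members, among them CD70 and TNFRSF12A.

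The labels were checked first. The brightest probe set for DACH1 read 875.1 in induced and 32.5 in silenced cells labelled serum-free, and 4431 and 126 in those labelled serum. Its other probe sets did not show this rise. Another read 6.7 and 0.4 labelled serum-free (induced and silenced), and 4.0 and 8.3 labelled serum. The last read 2.9 and 12.1 labelled serum-free, and 24.7 and 23.1 labelled serum. The check of the DACH1 labels thus rests on its brightest probe set. VIM and CD44 read 4214 or more on every array. GFAP, S100B and SOX2 were under 10.9 on every array, and NES read between 19.6 and 35.8, so several glial markers were absent. Of 8 leukocyte markers, PTPRC reached at most 11.1 and the summed signal was 128.6 and 194.9 on the arrays labelled serum-free (induced and silenced) and 132 and 123.7 on those labelled serum. Of these 8, 2 reached 50: CD2, at most 58.3, and CSF1R, at 47.9 in induced and 72.2 in silenced cells labelled serum-free against 21.9 and 19.3 labelled serum. Their part in the results below was not tested. Of 9 contractile, matricellular and ID genes that serum usually raises, 8 were higher on the arrays labelled serum-free in both DACH1 states. Their sum was 9465 (induced) and 12257 (silenced) there, against 1569 and 2097 on the arrays labelled serum. Of 4 sterol synthesis genes, which serum lipids usually lower, 3 were lower on the arrays labelled serum-free in both states. Both lists thus ran against the medium labels. Whether the labels are exchanged was not tested, and every medium comparison is given by label. In bulk RNA, fewer cells expressing a gene and less RNA per cell cannot be told apart.

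Most of the family gave low signals in these cells. A floor of 10.9, which 40% of all signals do not reach, was applied before any fold was taken. A pair of arrays was compared for a gene if either signal was 17.2 or more, the median over the whole table. At least 1 array reached a signal of 50 for 12 of the 38 members, which is 31.6%, against 49.9% of all genes. These were 3 ligands (CD70, TNFSF9 and TNFSF15) and 9 receptors (CD40, LTBR, TNFRSF1A, TNFRSF1B, TNFRSF9, TNFRSF10D, TNFRSF12A, TNFRSF19 and TNFRSF21). A further 16 peaked between 17.5 and 49.9. The last 10 peaked between 1.6 and 17.0. TNF itself was among them, at 5.1 and 11.4 on the arrays labelled serum-free (induced and silenced) and 12.8 and 16.8 on those labelled serum. LTA, TNFSF11, TNFRSF13C and TNFRSF17 lay under the floor on all 4 arrays. CD27, TNFSF4, TNFSF13, TNFRSF11B and TNFRSF10A-DT made up the rest of the 10.

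**Figure D1:**
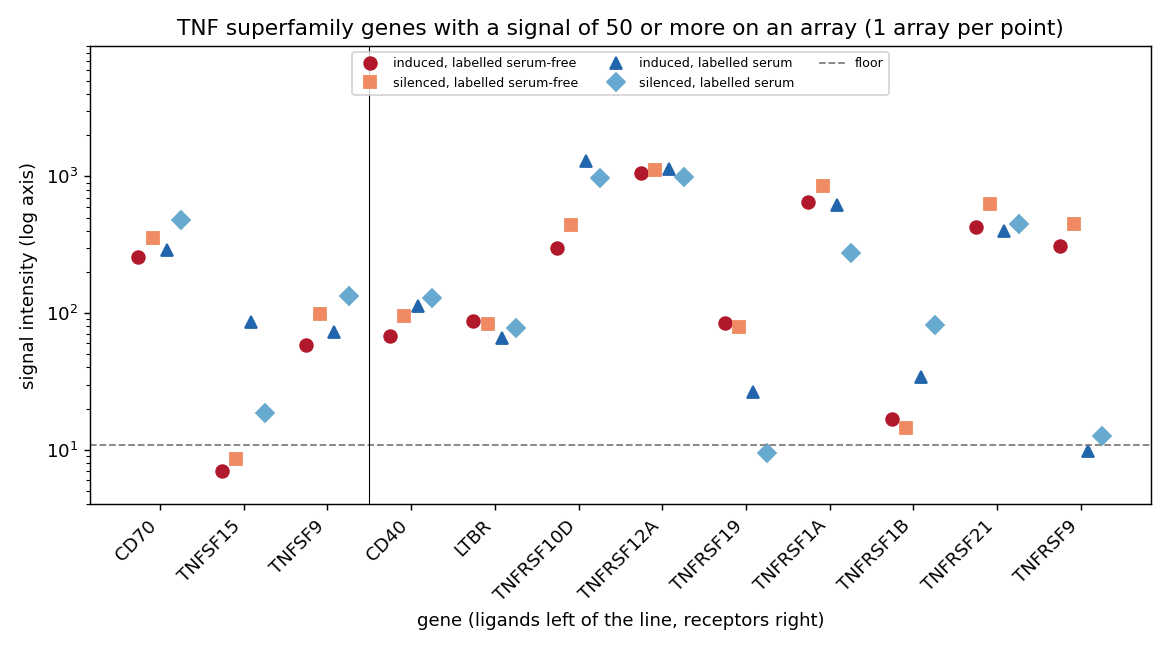
Signal intensity (log axis) of the 12 members that reached 50 on an array, 1 point per array, with ligands left of the vertical line and the floor of 10.9 dashed. TNFRSF9 sits at 308.2 and 447.1 on the arrays labelled serum-free and near the floor on the others, while the 4 points of TNFRSF12A lie together. Heights should be compared within a gene only, since probe sets differ in brightness.

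The medium comparison set the arrays labelled serum-free against those labelled serum, once in induced and once in silenced cells. Among receptors, TNFRSF9, TNFRSF19 and TNFRSF13B were at least 2-fold higher on the arrays labelled serum-free in both DACH1 states, as was the ligand TNFSF10. TNFRSF10D and TNFRSF1B and the ligand TNFSF14 were at least 2-fold lower in both. In induced cells 4 of 27 compared members were 2-fold higher (14.8%, against 14.0% of 12371 genes) and 5 were lower (18.5%, against 10.1%). In silenced cells 7 of 24 were higher (29.2%, against 15.3% of 12906 genes) and 3 were lower (12.5%, against 12.2%). Since these signals were in view when the family was chosen, nothing is read from those shares. The median log2 difference of the compared members was -0.09 in induced and 0.06 in silenced cells, against 0.01 and 0.06 over all compared genes.

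TNFRSF9, the costimulatory receptor CD137 of activated T cells, had the widest medium difference of the family in both states. It read 308.2 in induced and 447.1 in silenced cells labelled serum-free, against 9.8 and 12.7 in cells labelled serum. The fold was at least 28.3 in induced cells, where the array labelled serum lay under the floor, and 35.2 in silenced cells. Both other probe sets for it went the same way: one read 47.1 and 67.8 labelled serum-free (induced and silenced) against 0.8 and 6.0 labelled serum, and the other 37.1 and 40.1 against 3.1 and 10.0. The 2 arrays labelled serum-free were thus above both others on all 3 probe sets. Its ligand gene TNFSF9 went the other way by less than 2-fold, at 58.0 and 99.1 labelled serum-free against 72.7 and 134.4 labelled serum.

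The promoter of TNFRSF9 is shown because this gene differed most between media, that of TNFRSF1B because it differed most in the opposite direction in silenced cells, and that of TNFSF15 because it differed most with DACH1. Each window runs from 250 bases before to 50 after the RefSeq start in GRCh38.p14, 5′ to 3′ on the strand of the gene. They are chr1:7940790-7941089 (minus strand) for TNFRSF9, chr1:12166741-12167040 (plus strand) for TNFRSF1B and chr9:114792481-114792780 (minus strand) for TNFSF15. Capitals mark matches to the NF-kB consensus or to the AP-1 motif TGANTCA, searched on both strands, with no overlap between these motifs.
TNFRSF9 promoter: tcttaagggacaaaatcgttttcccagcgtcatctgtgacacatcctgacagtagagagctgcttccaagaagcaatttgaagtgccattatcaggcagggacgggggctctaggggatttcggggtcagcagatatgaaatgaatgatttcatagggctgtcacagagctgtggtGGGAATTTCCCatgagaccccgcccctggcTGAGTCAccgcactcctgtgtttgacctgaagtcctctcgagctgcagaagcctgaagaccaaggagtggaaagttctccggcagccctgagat
TNFRSF1B promoter: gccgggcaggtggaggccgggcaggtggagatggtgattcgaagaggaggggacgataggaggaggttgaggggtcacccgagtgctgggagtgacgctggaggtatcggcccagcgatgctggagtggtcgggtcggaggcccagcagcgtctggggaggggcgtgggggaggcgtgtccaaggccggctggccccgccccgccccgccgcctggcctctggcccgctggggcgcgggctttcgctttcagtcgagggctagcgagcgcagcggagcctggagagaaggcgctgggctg
TNFSF15 promoter: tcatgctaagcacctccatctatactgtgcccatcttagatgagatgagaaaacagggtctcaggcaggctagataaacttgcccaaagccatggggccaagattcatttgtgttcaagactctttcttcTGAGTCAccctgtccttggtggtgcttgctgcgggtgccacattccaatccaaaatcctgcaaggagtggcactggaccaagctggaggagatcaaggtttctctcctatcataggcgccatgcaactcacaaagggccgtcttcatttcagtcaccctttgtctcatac
The TNFRSF9 window held 1 AP-1 match and 2 overlapping NF-kB matches, 1 on each strand and offset by 1 base. The TNFSF15 window held 1 AP-1 match and no NF-kB match, and the TNFRSF1B window held neither. The promoter table matched 26 of the 38 members with 33 windows, some of them overlapping. The NF-kB consensus was in 33.3% of these windows and in 11.3% of all 35116, and AP-1 in 18.2% and 7.71%. A match describes the letters and is not a binding site.

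TNFRSF19, TNFSF10 and TNFRSF13B were the other members at least 2-fold higher in both states on the arrays labelled serum-free. TNFRSF19, a receptor known from neural progenitors and glioma invasion, read 84.5 in induced and 79.3 in silenced cells labelled serum-free, against 26.3 and 9.4 in those labelled serum. The fold was 3.21 in induced and at least 7.28 in silenced cells, and its other probe sets put both arrays labelled serum-free above both labelled serum. TNFSF10, the death ligand TRAIL, read 27.3 and 31.4 (induced and silenced) against 10.3 and 5.7, at least 2.50-fold and 2.88-fold higher. All 3 of its probe sets had both arrays labelled serum-free above the others. TNFRSF13B, a receptor of the B cell factors TNFSF13B and TNFSF13, read 32.4 and 37.0 against 13.4 and 15.2, a fold of 2.42 in induced and 2.43 in silenced cells. TNFSF13B read 36.3 and 37.4 against 22.6 and 17.3, 1.61-fold higher in induced and 2.16-fold higher in silenced cells.

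TNFRSF10D, a decoy receptor for TRAIL with a truncated death domain, was lower on the arrays labelled serum-free. It read 298.1 in induced and 443.9 in silenced cells there, against 1301 and 978.8 in cells labelled serum. The fold was 4.36 in induced and 2.21 in silenced cells, and its second probe set gave 62.1 and 87.3 against 286.4 and 183.4. The decoy and its ligand thus ran in opposite directions across the media. Of the other TRAIL receptors measured, TNFRSF10A read between 9.4 and 17.6 and TNFRSF10C between 1.6 and 17.5, too low to place. TNFRSF11B, a soluble decoy that also binds TRAIL, peaked at 12.7.

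Both receptors of TNF differed between the media in silenced cells, in opposite directions. In induced cells only TNFRSF1B passed 2-fold. TNFRSF1B, which lacks a death domain and binds TRAF2, read 16.8 in induced and 14.5 in silenced cells labelled serum-free, against 34.1 and 81.2 in those labelled serum. That was 2.03-fold lower in induced and 5.60-fold lower in silenced cells. With a pseudocount in place of the floor, the log2 difference in induced cells was -0.70 rather than -1.02. TNFRSF1A, the death domain receptor that most cells carry, read 646.6 and 846.8 labelled serum-free (induced and silenced) against 615.9 and 275.7 labelled serum. Its signal was 3.07-fold higher in silenced cells and 1.05-fold higher in induced cells, so the silenced array labelled serum was the low one of the 4. Both genes have a single probe set that names 1 gene.

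Among other ligands, TNFSF14, which binds LTBR and TNFRSF14, read 12.5 in induced and 10.7 in silenced cells labelled serum-free, against 34.3 and 31.3 labelled serum. It was 2.74-fold lower in induced and at least 2.87-fold lower in silenced cells. Its second probe set gave 0.8 and 0.9 against 17.7 and 20.0. TNFSF15, which binds the death domain receptor TNFRSF25, read 7.0 and 8.5 labelled serum-free, both under the floor, against 86.2 and 18.6 labelled serum. The fold was at least 7.91 lower in induced and at least 1.71 lower in silenced cells. TNFRSF25 itself was 2.19-fold lower in induced cells by its chosen probe set (18.0 labelled serum-free and 39.5 labelled serum), but one of its 4 other probe sets went the other way, at 27.4 and 37.3 (induced and silenced) labelled serum-free against 4.1 and 12.3 labelled serum. In silenced cells others did so too, at 19.8 labelled serum-free against 9.5 labelled serum and 14.2 against 2.0. The last read 17.7 against 19.0 there. Its direction is therefore not settled. TNFRSF14-AS1, antisense to TNFRSF14, read 32.9 and 49.9 against 17.8 and 11.0, whereas TNFRSF14 lay between 27.3 and 31.8 on all 4 arrays. The other probe sets of TNFRSF14-AS1 gave 5.2 and 11.2 labelled serum-free (induced and silenced) against 9.3 and 22.6 labelled serum in one case, and 19.9 and 5.4 against 16.4 and 14.6 in the other, so its direction is not settled either.

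**Figure D2:**
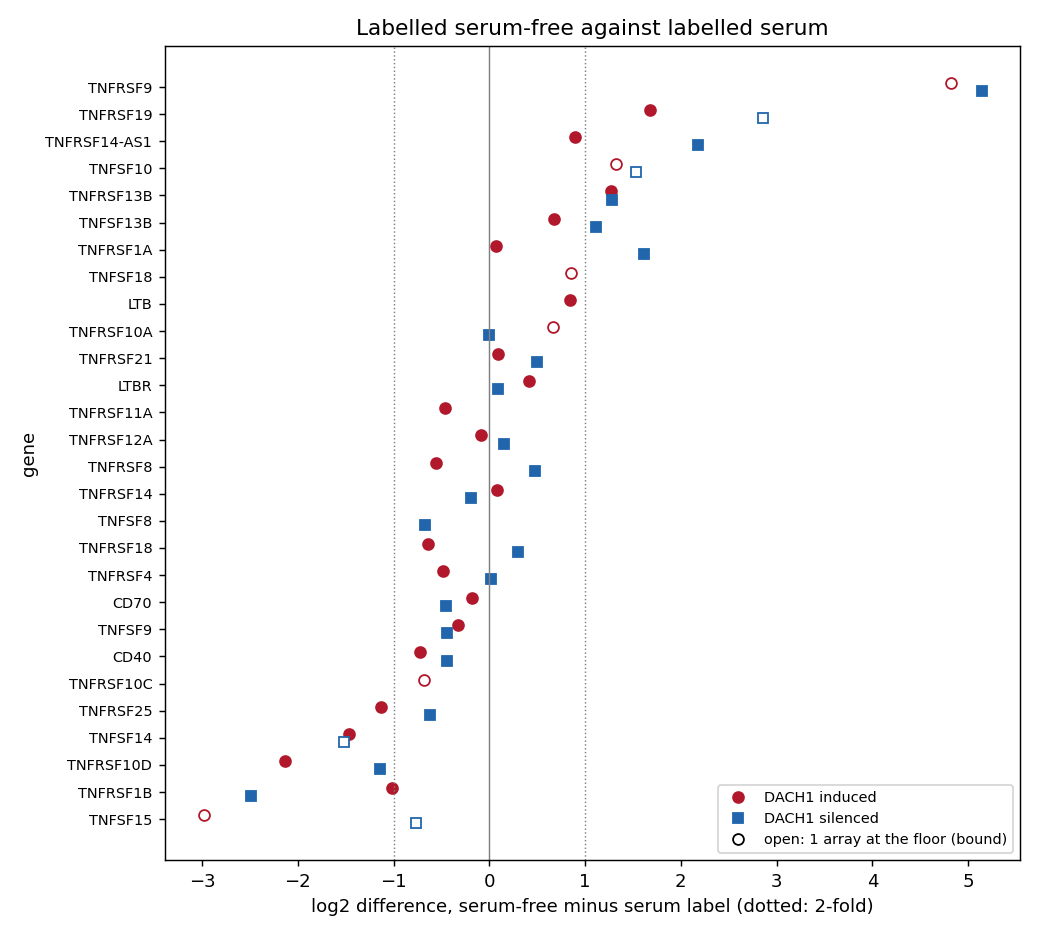
Log2 difference of each compared member, labelled serum-free minus labelled serum, in induced (circles) and silenced cells (squares), with open symbols where 1 array lay at the floor and dotted lines at 2-fold. TNFRSF9 stands alone at the top, with a bound of 4.82 in induced and a value of 5.14 in silenced cells, and TNFSF15, TNFRSF1B and TNFRSF10D lie at the bottom.

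The other 6 members that reached 50 passed 2-fold in none of the 4 pairs of arrays, a count that was not made over all genes. TNFRSF12A, the receptor of TNFSF12, read 1056 in induced and 1108 in silenced cells labelled serum-free, against 1126 and 996.6 in cells labelled serum, a range within 1.13-fold in each pair. LTBR, the lymphotoxin beta receptor, read 86.8 and 82.8 against 65.3 and 77.6. CD40, which binds CD40LG, read 67.8 and 95.9 against 112.0 and 129.7, so both arrays labelled serum-free were below both labelled serum, by 1.65-fold in induced and 1.35-fold in silenced cells. TNFRSF21, a death domain receptor known from neurons, read 424.4 and 633.0 against 400.0 and 448.0. CD70 and TNFSF9 complete the group and are described with DACH1.

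The DACH1 comparison set induced against silenced cells within each medium label. In the arrays labelled serum, 3 of 23 compared members were 2-fold higher (13.0%, against 2.91% of 12190 genes) and 2 were 2-fold lower (8.7%, against 4.77%). In the arrays labelled serum-free, 1 of 23 was higher (4.35%, against 1.02% of 12659 genes) and 0 were lower (against 2.72%). Nothing is read from these shares, for the reason given with the media. Of all genes past 2-fold labelled serum-free, 27.3% were higher, and 41.8% after quantile normalization of the arrays. The median log2 difference of the compared members was -0.22 labelled serum-free and 0.20 labelled serum, against values of 0.01 or nearer to 0 over all genes. The median labelled serum fell below 0 under some alternatives, given in the last section. No member passed 2-fold with both labels. The share of all genes that did so was not counted, so nothing is read from this either.

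TNFSF15, an inhibitor of blood vessel growth as well as a T cell cytokine, was higher in DACH1-induced cells labelled serum, at 86.2 in induced and 18.6 in silenced cells (4.63-fold). Labelled serum-free it was under the floor in both states. Its other probe set was under the floor on all 4 arrays, so the difference rests on 1 probe set. TNFRSF1A was 2.23-fold higher (615.9 and 275.7) and TNFRSF19 at least 2.41-fold higher (26.3 and 9.4, log2 0.87 with a pseudocount) in induced cells labelled serum. The other probe sets of TNFRSF19 read 4.9 and 10.1, and 1.1 and 9.0, on these arrays. All of these lay under the floor, so the TNFRSF19 difference also rests on 1 probe set. Labelled serum-free, TNFRSF1A was 1.31-fold lower (646.6 and 846.8) and TNFRSF19 1.07-fold higher (84.5 and 79.3).

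TNFRSF1B was 2.38-fold lower in DACH1-induced cells labelled serum, at 34.1 in induced and 81.2 in silenced cells. TNFSF8, the ligand of the lymphoma antigen TNFRSF8, was at least 2.74-fold lower there (3.7 and 29.9). Its other probe sets gave 10.6 and 29.2 in one case and 8.9 and 23.4 in the other, so all 3 had the induced array under the floor. Labelled serum-free, the only member past 2-fold was LTB, a subunit of surface lymphotoxin, at 25.7 in induced and 10.4 in silenced cells (at least 2.36-fold). Its second probe set went against this, at 11.8 and 19.1.

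The costimulatory ligands CD70 and TNFSF9 were lower in induced cells with either label, by less than 2-fold, unlike TNFSF15 labelled serum. CD70, the ligand of CD27, read 255.9 in induced and 353.6 in silenced cells labelled serum-free (1.38-fold lower), and 289.6 and 482.2 labelled serum (1.67-fold lower). TNFSF9 read 58.0 and 99.1 labelled serum-free (1.71-fold lower) and 72.7 and 134.4 labelled serum (1.85-fold lower). Among the 11 members that reached 50 and had a value with both labels, 5 were below 0 with both, namely CD40, CD70, TNFSF9, TNFRSF9 and TNFRSF21. TNFRSF19 was above 0 with both, and the other 5 had opposite signs. Such signs were not counted over all genes, so nothing is read from these numbers. These signs rest on the chosen probe sets: over the mean of all probe sets, the log2 difference labelled serum-free was 0.02 for CD40 and -0.07 for TNFRSF19. For TNFRSF9 the silenced and induced signals labelled serum both lay near the floor.

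**Figure D3:**
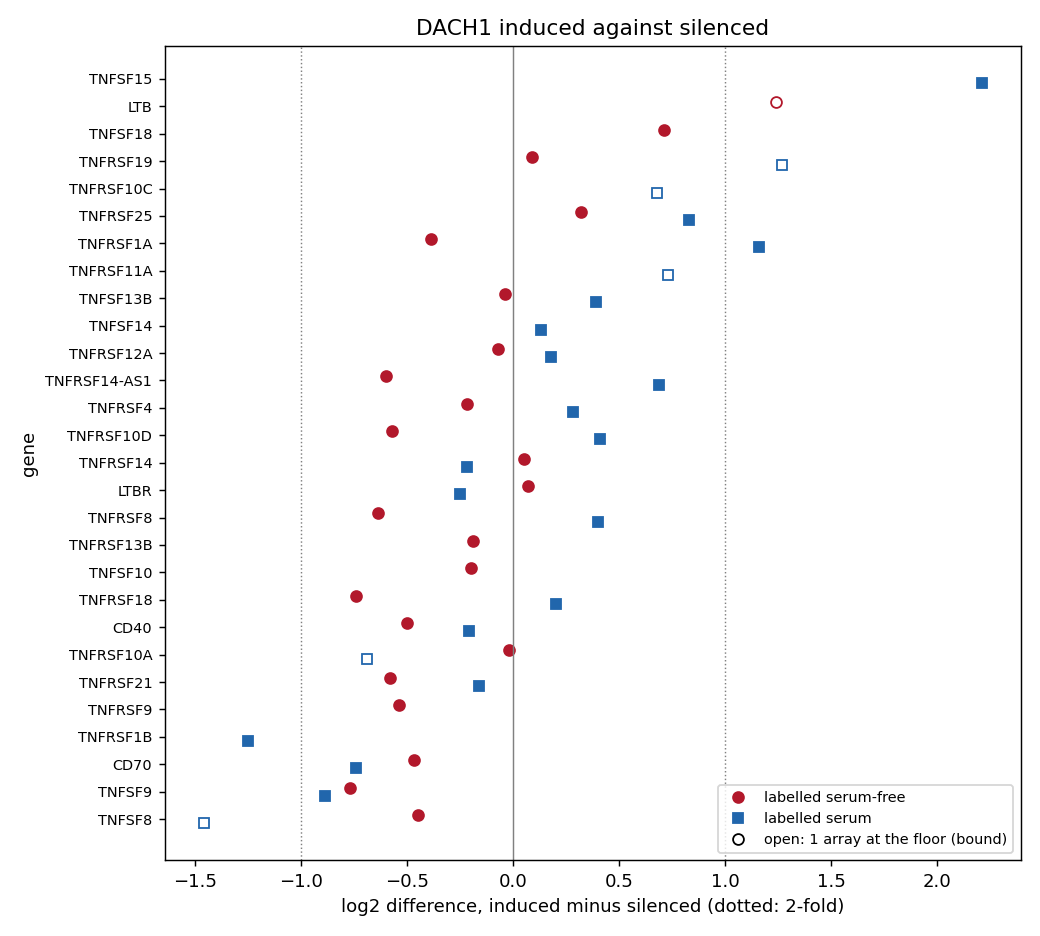
Log2 difference of each compared member, induced minus silenced, in the arrays labelled serum-free (circles) and labelled serum (squares), with open symbols where 1 array lay at the floor and dotted lines at 2-fold. TNFSF15 at 2.21 labelled serum is the point farthest to the right, and CD70 and TNFSF9 lie left of 0 with both labels.

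Several members are neighbours in the genome, with no other protein-coding gene starting between them. TNFSF9, CD70 and TNFSF14 follow each other on chromosome 19. TNFSF9 and CD70 were both lower with DACH1 induced, whereas TNFSF14 read 34.3 in induced and 31.3 in silenced cells labelled serum. TNFRSF8 and TNFRSF1B are neighbours on chromosome 1. TNFRSF8 was 1.32-fold higher with DACH1 labelled serum (26.6 and 20.2), where TNFRSF1B was 2.38-fold lower. TNFSF15 and TNFSF8 are neighbours on chromosome 9 and differed in opposite directions with DACH1 labelled serum, 4.63-fold higher and at least 2.74-fold lower.

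Receptor and ligand pairs could be set side by side only in part. CD27, the receptor of CD70, lay between 11.5 and 13.0, and TNFRSF4 and TNFRSF18, costimulatory receptors of T cells, peaked at 21.3 and 20.1. Their ligands TNFSF4 and TNFSF18 peaked at 13.0 and 19.6. The osteoclast receptor gene TNFRSF11A peaked at 18.1, while its ligand TNFSF11 was under the floor throughout. Among the members, TNFSF9 and TNFRSF9 were the only ligand and receptor pair of which both reached 50 on the same arrays, those labelled serum-free. TNFSF12, the ligand of TNFRSF12A, was not analysed, and CD40LG, the ligand of CD40, is outside the naming rule.

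Genes that act beside or below these receptors were tested across both factors. An additive limma model of medium and DACH1 state was fitted to all 4 arrays, with Benjamini-Hochberg adjustment over 12103 genes. With 1 array per condition, its error term is the departure from additivity, and repeat cultures do not enter its p-values. The threshold was a limma adjusted p under 0.05. Of 40 tested genes from 4 lists, 1 passed as higher with the serum-free label (2.5%, against 15.4% of all genes). Another 9 passed as lower (22.5%, against 12.7%). The lists were made with earlier results of these data known, so nothing is read from these shares. For DACH1, limma called 0 of the 40, as it called 0 of all genes (0.0% higher and 0.0% lower), and 2 of the 40 and 585 of all genes had an unadjusted p under 0.05.

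In the list of feedback inhibitors and shedding proteases, 4 of 9 tested genes passed the limma threshold, all as lower. TNFAIP3, a ubiquitin-editing inhibitor of NF-kB signalling, read 158.2 in induced and 141 in silenced cells labelled serum-free, against 387.6 and 920.8 labelled serum (log2 difference -2.00, SE 0.40, limma adjusted p = 0.037, lower in 2 of 2 pairs). NFKBIA, which holds NF-kB in the cytoplasm, fell by 1.70 on the log2 scale (SE 0.34, limma adjusted p = 0.0383), at 389.4 and 276.6 against 841 and 1344. Over the mean of all its probe sets, NFKBIA was at -0.85 and no longer passed (limma adjusted p = 0.0526). With no floor, limma's adjusted p was 0.0603 for TNFAIP3 and 0.0611 for NFKBIA. TANK, a TRAF-binding protein, and TNIP1, a partner of TNFAIP3, fell by 1.42 and 1.35 (limma adjusted p = 0.0225 and 0.0231). Without probe sets ending in _x_at or _s_at, TNIP1 was at -0.97 and no longer passed (limma adjusted p = 0.0713). The shedding proteases ADAM10 and ADAM17, which cut TNF and other surface proteins, did not pass (limma adjusted p = 0.0586 and 0.614). TNFRSF9 was high on the arrays where these 4 inhibitor genes were low, and a link between them was not tested.

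Among 20 adaptors and kinases, 1 passed the limma threshold as higher and 4 as lower. The TNFRSF1A adaptor gene TRADD rose by 0.96 (SE 0.18, limma adjusted p = 0.0352), at 318.9 in induced and 291.9 in silenced cells labelled serum-free, against 153.3 and 161.3 labelled serum. TRADD no longer passed over the mean of all its probe sets (0.51, limma adjusted p = 0.0771) or with no floor (limma adjusted p = 0.0526). MAP3K5, a stress kinase gene also called ASK1, fell by 3.05 (SE 0.49, limma adjusted p = 0.0278), at 18.2 and 10.9 against 80.6 and 168.7, so the silenced array labelled serum-free lay at the floor. TRAF1, which binds TNFRSF9 and other receptors, fell by 1.26 (limma adjusted p = 0.0313, and 0.0501 with no floor), and the necroptosis gene MLKL fell by 1.16 (limma adjusted p = 0.0262). TAB3, outside the naming rule, fell by 0.93 (limma adjusted p = 0.0405).

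Of 7 caspase genes and their inhibitors or partners, only CFLAR passed the limma threshold. It was lower by 0.84 (SE 0.18, limma adjusted p = 0.0432), at 545.2 and 584 (induced and silenced) against 1050 and 976.3. The median log2 difference of this list was -0.71, and only BIRC2 lay above 0, at 0.35. CFLAR blocks CASP8 at death receptors. The CFLAR call rests on its probe set, since without probe sets ending in _x_at or _s_at the log2 difference was 0.07. None of the 4 tested superfamily genes with other symbols passed. FAS, a death receptor named here after its values were seen, read 319.6 and 361.3 labelled serum-free (induced and silenced) against 466.3 and 453.1 labelled serum (limma adjusted p = 0.151).

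For DACH1, TNFAIP3 was at 387.6 in induced and 920.8 in silenced cells labelled serum, a log2 difference of -1.25, and at 158.2 and 141 labelled serum-free, a difference of 0.17. MAP3K5 gave -1.07 and a bound of 0.74, since the silenced array labelled serum-free lay at the floor. NFKBIA gave -0.68 and 0.49. In each of these 3 genes the signs differed between the labels. SHARPIN, a subunit of the linear ubiquitin ligase complex, was at 98.7 in induced and 58.2 in silenced cells labelled serum-free, a log2 difference of 0.76, and at 59.8 and 56.4 labelled serum, a difference of 0.08. RNF31, another subunit of that complex and named here after its values were seen, was below 0 with both labels, at -0.58 labelled serum-free and -0.70 labelled serum. Its signals were low, at 16.9 in induced and 25.2 in silenced cells labelled serum-free, and 22.5 and 36.5 labelled serum. They came from a probe set ending in _x_at. None of these 5 genes passed in the limma fit.

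**Figure D4:**
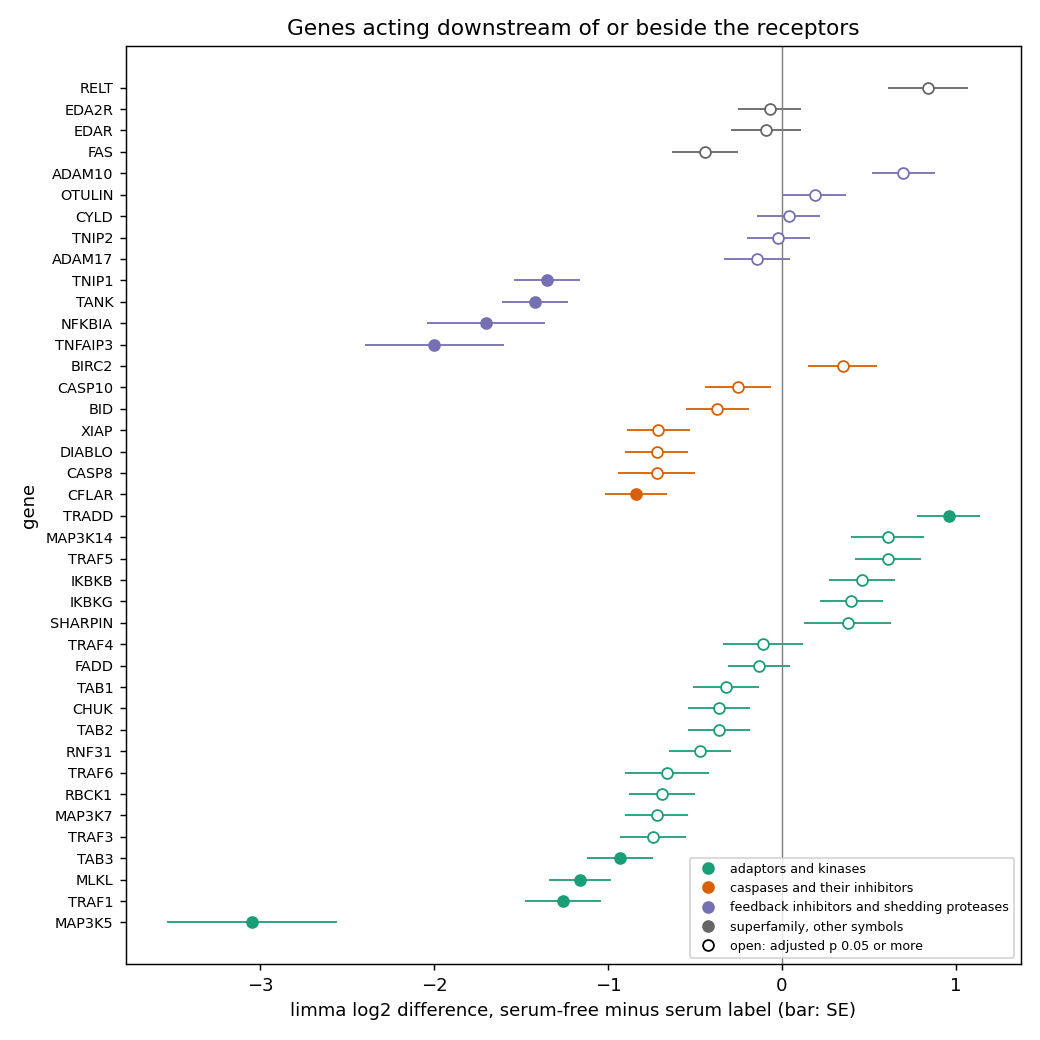
Limma log2 difference of 40 pathway genes, labelled serum-free minus labelled serum, with bars for the SE and filled points for an adjusted p under 0.05, coloured by list. TNFAIP3, NFKBIA, TANK and TNIP1 lie left of 0 as a group, and TRADD is the filled point right of 0.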

How the data were processed

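The deposited values give 1 signal intensity per probe set and array on a linear scale. Per the submitters' processing notes MAS5 made them; its version and target intensity were not given in the sources used here. MAS5 leaves low signals noisy. Of 54613 probe sets, 41091 name 1 gene in GEO's platform annotation, with 99.9% of symbols updated through Entrez identifiers, and 74 belong to the members. The brightest probe set of a gene was the one with the highest mean of log2 signals over the 4 arrays, taken after the floor of 10.9. One receptor gene and an antisense RNA named after it are not reported here. TNFSF12 and TNFRSF6B, whose probe sets name several genes, were not analysed here. The members, lists and choices were made with earlier results of these data known. All 4 signals are given for members that reached 50. Of each pathway list, up to 4 genes past the limma threshold (adjusted p under 0.05) were named by medium difference, and up to 2 by DACH1 difference. Of 50 pathway genes, 44 were matched and 40 tested, those with 2 arrays at 17.2 or more. The fit was tested on simulated data with independent noise and no interaction of the factors. That test cannot show how the p-values behave on these arrays, where the error term is the departure from additivity. Promoter windows are from RefSeq, GRCh38.p14. Alternatives were quantile normalization, other floors, filters and probe set rules, and a trend in limma's variance prior. The number of arrays limits the precision. The work used limma 3.58.1 in R 4.3.3, and numpy 2.4.6, pandas 2.3.3 and matplotlib 3.10.9 in Python 3.11.15.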

Additional observations from a re-analysis of the deposited data

Results flagged for a closer look

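TNFRSF1A drew attention because its DACH1 difference had opposite signs with the 2 medium labels while all 4 signals lay above the floor. The log2 difference, induced minus silenced, was -0.39 labelled serum-free and 1.16 labelled serum. LTBR, TNFRSF10D, TNFRSF12A and TNFRSF1B also had opposite signs with all 4 signals above the floor, so this is not particular to TNFRSF1A. With 1 array per condition the difference between the labels was not tested.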

How the results depend on the processing

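Of the 12 members that reached 50, 6 passed 2-fold in a pair. The share over all genes that reached 50 was not counted, so nothing is read from that number. None of their values past 2-fold turned direction under the alternatives that gave a value. Dim arrays or removed probe sets left some with none, among them TNFRSF1A without _s_at probe sets, and TNFSF15, TNFRSF1B and TNFRSF19 with a floor of 50. Of 325 values of the 12 members, 322 kept their side of 2-fold. The others were TNFRSF1B for the medium in induced cells (-0.70) and TNFRSF19 for DACH1 labelled serum (0.87), both with a pseudocount, and TNFSF15 for the medium in silenced cells (-1.13 with no floor). The counts of members past 2-fold depended on the treatment of dim signals. With a pseudocount equal to the floor, the medium count in induced cells was 2 higher and 3 lower, and DACH1 labelled serum-free had 0 higher. With every array above the median, the medium counts were 1 higher and 2 lower in induced and 2 higher and 1 lower in silenced cells. DACH1 then had 0 higher labelled serum-free and 1 lower labelled serum. With a floor of 50 and an array at 100 or more, the medium counts were 1 higher and 1 lower in induced and 2 higher and 1 lower in silenced cells. DACH1 then had 0 higher labelled serum-free, and 1 higher and 0 lower labelled serum. The mean of all probe sets, and a table without _x_at and _s_at probe sets, each gave 0 higher for DACH1 labelled serum-free. The member medians are small: quantile normalization turned the medium median in silenced cells to -0.21. The DACH1 median labelled serum, 0.20 in the main setting, was -0.16 with the floor of 50. It was also -0.16 without _x_at and _s_at probe sets, and -0.01 over the mean of all probe sets. It stayed above 0 with quantile normalization, no floor, a pseudocount and every array above the median, and was 0 with no filter.

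The limma calls of pathway genes moved further. With no filter there were 0 higher and 0 lower for the medium, with no floor 0 higher and 4 lower, and with a trend in the prior 2 higher and 15 lower. The count higher was 2 with a pseudocount, 3 with every array above the median and 2 with the floor of 50. Without _x_at and _s_at probe sets, CFLAR turned to 0.07 and FAS to 0.43. The cause was not tested. With an array left out, the fit returns the medium difference of a single DACH1 state, which leaves a value and no test. MAP3K5, TRAF1, MLKL, TRADD, CFLAR, TANK, TNFAIP3, NFKBIA, TNIP1 and FAS kept their direction. Since both states already shared a sign in each of these genes, this adds no further check. No paired analysis was possible because the labels carry no replicate numbers; the limma fit already holds DACH1 state as a term. Background correction could not be varied from MAS5 signals.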
